A study of Homo sapiens with 2 samples.

Results

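The amino acid transporter families of the SLC1, SLC3, SLC6, SLC7, SLC36, SLC38 and SLC43 groups were examined in Seg-1 cells, a lung cancer line that per the labels is H460. Their members were all probe sets annotated to exactly 1 gene symbol starting with SLC1A, SLC3A, SLC6A, SLC7A, SLC36A, SLC38A or SLC43A. A single gene of the SLC7A family was left out by the rule and is not reported here. This gave 144 of 54613 probe sets and 61 of 19775 genes. Of these genes, 55 encode transporters or their heavy chains (135 probe sets), and 6 are opposite-strand genes that share only the prefix (9 probe sets), among them SLC7A6OS and SLC38A2-AS1. A further 9 probe sets that also report other genes were not assigned to a member.

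Cells of the FGF-AS siRNA group received an siRNA against FGF-AS, the antisense RNA of the fibroblast growth factor 2 locus, and cells of the negative control siRNA group received an siRNA without a known target (control siRNA). Both were transfected with the same lipid reagent in serum-containing medium and harvested at 72 hours, and each group is 1 array. The study asked how FGF2 is regulated by its antisense RNA and by Argonaute-2, and no untransfected cells were analysed here. Since neither group has a second array, differences could not be set against the variation between cultures, and no test was made.

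Amino acid transporters bring nutrients across the plasma membrane or move them between organelles and cytosol. Some, such as the SLC7 light chains, work only when joined by a disulfide bond to a heavy chain of the SLC3 family that carries them to the cell surface. Exchangers such as SLC7A5 import leucine and other large neutral amino acids in return for glutamine that sodium-driven carriers have brought in, and the lysosomal kinase complex mTORC1 reads the amino acid supply. When amino acids run short, the kinase GCN2 raises translation of the transcription factor ATF4, which induces many transporter and amino acid synthesis genes.

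Values are MAS5 signals, a linear brightness for each probe set, with a median over all probe sets of 23.1 with FGF-AS siRNA and 25.5 with negative control siRNA. Ratios are log2(FGF-AS siRNA signal + 6.1) minus log2(negative control siRNA signal + 6.1), where 6.1 is the 25th percentile of all signals, so that changes of dim probe sets are understated. Each gene was represented by its brightest probe set and counted as measured when the mean of both arrays reached 23.9, the median over probe sets. The only error available was the disagreement between probe sets of 1 gene. It gave a single log2 ratio an SD of 0.36 at mean signals of 145.2 or more and 0.58 at lower ones, and it covers neither cultures nor hybridisations. NUDT6, the gene that encodes FGF-AS, read 104.5 with FGF-AS siRNA and 376.9 with negative control siRNA on its brighter probe set, and 77.8 with FGF-AS siRNA and 267 with the control siRNA on the other, so the target was lower in the array labelled as its knockdown.

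The epithelial keratin genes KRT8 and KRT18 read 3780.9 and 9327.2 with FGF-AS siRNA and 3475.7 and 10152.5 with negative control siRNA, while EPCAM was dim (43.8 with FGF-AS siRNA and 34 with the control siRNA) and CDH1 was under the minimum. Of 5 lung epithelium markers on the array, NAPSA, SFTPB and SFTPC were measured but dim, and NKX2-1 and SCGB1A1 were not. The leukocyte markers CD3E, CD79A and CD14 also passed the minimum, 3 of 4 listed, with a summed signal of the list of 160.5 with FGF-AS siRNA and 171.3 with negative control siRNA, although PTPRC read 19 with FGF-AS siRNA and 0.5 with the control siRNA. Of the neuron and neuroendocrine markers, 3 of 6 passed, and the list summed to 389.3 with FGF-AS siRNA and 626.6 with negative control siRNA; its part in the results was not tested. Markers of astrocytes (1 of 3), fibroblasts (2 of 5) and endothelium (1 of 3) passed as well. A signal a few times the minimum therefore cannot be told from background here, and levels of different probe sets are not comparable with each other.

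Of the 55 transporter genes, 29 were measured, and 17 of these reached the stricter mean signal of 145.2. None of the 29 passed 2-fold, where 2.05% of all 12352 measured genes did so upward and 2.72% downward with FGF-AS siRNA. Of the 17 brighter ones, 0 passed 2-fold (0.985% upward and 1.11% downward among 7719 genes), and 2 were at least 1.5-fold higher, SLC7A2 and SLC7A5 (5.75%), with 0 lower by that much (5.75%). SLC1A4, SLC7A2 and SLC7A5 were at least 1.5-fold higher (3 of 29, against 7.96% of all measured genes), and no measured transporter gene was at least 1.5-fold lower (0 of 29, against 9.52%). With the mean over probe sets this balance turned round, as 2 were higher by 1.5-fold or more (6.61% of all measured genes) and 4 were lower by that much (11.1%). The median log2 ratio of the 29 genes was 0.05 (SD across genes 0.37), beside -0.02 over all measured genes (SD 0.48). In all, 17 read higher and 12 lower, so that 58.6% were above 0, beside 48.1% of all measured genes. This split depended on the processing. It became 21 higher and 8 lower under median centring, quantile normalization or loess, 14 higher and 15 lower with the mean over the probe sets of a gene, and 10 higher and 12 lower when those with the endings _s_at and _x_at were dropped. Within 1.5-fold lay 89.7% of the 29 genes and 82.5% of all measured genes, a difference that was not tested.

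**Figure D1:**
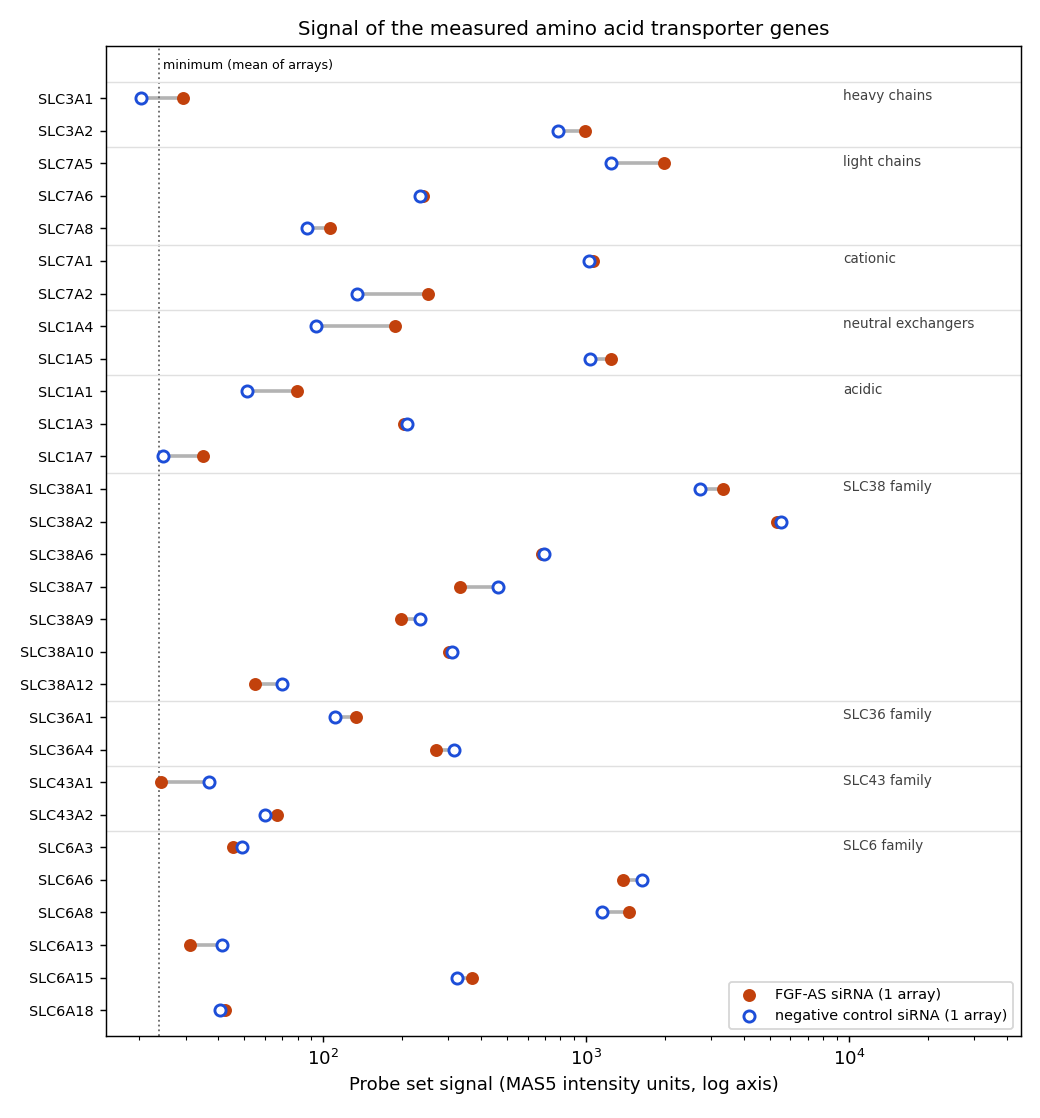
Signals of the 29 measured transporter genes (rows, grouped by role) on the FGF-AS siRNA array (filled) and the negative control siRNA array (open), brightest probe set, log axis in MAS5 intensity units, with the minimum of 23.9 dotted. The widest gaps are those of SLC1A4, SLC7A2 and SLC7A5, with FGF-AS siRNA to the right, and positions of different genes are not comparable as expression levels.

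The heavy and light chains of the large neutral amino acid exchanger read higher with FGF-AS siRNA. SLC7A5 (LAT1, 201195_s_at), the light chain that imports leucine, isoleucine, phenylalanine and tryptophan, read 1980 with FGF-AS siRNA and 1249.4 with negative control siRNA, a log2 ratio of 0.66 or 1.58-fold higher. Its size exceeded the SD of 0.36 between probe sets. SLC3A2 (4F2hc or CD98, 200924_s_at), the heavy chain that SLC7A5 needs, read 992.6 with FGF-AS siRNA and 784.5 with negative control siRNA, a log2 ratio of 0.34 and just under that SD. Both genes have a single probe set, so neither ratio could be set against another. SLC7A5 has pseudogene copies. A probe set shared by SLC7A5P1 and SLC7A5P2 (1555216_a_at) read 190.6 with FGF-AS siRNA and 220.1 with negative control siRNA, a log2 ratio of -0.20 and within the SD.

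The other light chains of SLC3A2 gave no single answer. SLC7A6 (y+LAT2), which exchanges cationic for neutral amino acids, read 240 with FGF-AS siRNA and 232.9 with negative control siRNA on its brightest probe set, a log2 ratio of 0.04. Its dimmer probe sets were lower, at 164 with FGF-AS siRNA and 224.2 with the control siRNA (log2 ratio -0.44) and at 73.2 with FGF-AS siRNA and 132.6 with the control siRNA (-0.81). SLC7A8 (LAT2), a further neutral amino acid exchanger, read 106.6 with FGF-AS siRNA and 86.9 with negative control siRNA (0.28), while its 3 other measured probe sets gave -0.34, -0.96 and -2.03. The last of these read 5.9 with FGF-AS siRNA and 42.8 with negative control siRNA, so its size rests on a signal under the minimum. SLC3A1, the heavy chain of the kidney and gut cystine carrier, lay at the minimum with 29.3 with FGF-AS siRNA and 20.3 with the control siRNA. Its light chain SLC7A9 was not measured, and neither were SLC7A7, SLC7A10 and SLC7A13, whose mean signals ran from 4.15 to 15.6. The opposite-strand gene SLC7A6OS, a separate protein-coding gene, read 135.1 with FGF-AS siRNA and 128.5 with negative control siRNA.

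Of the cationic group of the SLC7 family, which includes carriers for arginine, lysine and ornithine, SLC7A1 and SLC7A2 were measured. SLC7A1 (CAT1), the widely expressed member, read 1061.9 with FGF-AS siRNA and 1031.8 with negative control siRNA on its brightest probe set, a log2 ratio of 0.04. Its other probe sets were lower, at 145.9 with FGF-AS siRNA and 202.1 with the control siRNA (-0.45), at 32.4 with FGF-AS siRNA and 67.9 with the control siRNA (-0.94), and at 14.1 with FGF-AS siRNA and 59 with the control siRNA (-1.69). SLC7A2 (CAT2), whose liver and inducible forms are known, read 251.7 with FGF-AS siRNA and 134.9 with negative control siRNA, a log2 ratio of 0.87 or 1.83-fold higher. Its dim second probe set went the other way, with 19.2 with FGF-AS siRNA and 34.1 with the control siRNA (-0.67). The arrays therefore did not settle a direction for either gene. SLC7A3, SLC7A4 and SLC7A14 were not measured.

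The neutral amino acid exchangers of the SLC1 family were higher with FGF-AS siRNA on every measured probe set. SLC1A4 (ASCT1), which carries alanine, serine, cysteine and threonine, had the highest log2 ratio of the 29 measured transporter genes, 0.95 on its brightest probe set (212811_x_at), which read 187.2 with FGF-AS siRNA and 93.7 with negative control siRNA. Its second (209610_s_at) read 166.2 with FGF-AS siRNA and 95.4 with negative control siRNA, a log2 ratio of 0.76. The others read 91.9 with FGF-AS siRNA and 27.9 with the control siRNA (212810_s_at, 1.53) and 49.6 with FGF-AS siRNA and 43.5 with the control siRNA (209611_s_at, 0.17). All 4 were higher, and 3 of the 4 exceeded the SD of 0.58 for dim probe sets. SLC1A4 passed 2-fold under median centring (1.01), quantile normalization (1.09) and loess (1.06). SLC1A5 (ASCT2), the glutamine importer of many tumour lines, read 1250 with FGF-AS siRNA and 1032.7 with negative control siRNA on its only probe set, a log2 ratio of 0.27 and within the SD.

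The glutamate and aspartate carriers of the same family were mostly dim. SLC1A1 (EAAT3), the epithelial and neuronal member, read 79.8 with FGF-AS siRNA and 51.3 with negative control siRNA, a log2 ratio of 0.58, no larger than the SD for dim probe sets. SLC1A3 (EAAT1), best known from glia, read 204 with FGF-AS siRNA and 208.3 with negative control siRNA, a log2 ratio of -0.03 far within the SD. SLC1A7 read 35 with FGF-AS siRNA and 24.6 with the control siRNA, close to the minimum, and SLC1A2 and SLC1A6 were not measured.

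Short forms of the ATF4 element were searched in RefSeq promoters (build GRCh38.p14, 250 bases before to 50 after each annotated start), because SLC7A5, SLC3A2, SLC1A4 and SLC1A5 are known ATF4-driven genes. These genes all read higher with FGF-AS siRNA on their brightest probe sets, and they are not all such members. SLC38A2, the carrier induced when cells lack amino acids, is not among them and was level (-0.05 on its brightest probe set). The motif was TGATGNAA on either strand, with N any base. It occurred in 6 of the 24 measured transporter genes with a promoter there (25%), beside 4.46% of all 27305 genes and 2.91% of 10088 measured genes. By promoter it was 6 of 43 (14.0%), beside 3.62% of all 35116 promoters and 2.14% of the 14686 promoters of measured genes. None of the 24 promoters of unmeasured transporter genes held it. SLC1A4, SLC1A5 and SLC3A2 were among the genes that prompted the search, so the share is not an independent result. The stretches are shown with the motif in capitals, on the gene's own strand, so that TTNCATCA is the motif on the opposite strand. They are given because they hold the motif in genes whose ratios are described here.
SLC1A4, chr2:64989366-64989425, plus strand: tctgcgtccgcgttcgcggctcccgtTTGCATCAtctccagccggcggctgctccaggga
SLC1A5, chr19:46784878-46784937, minus strand: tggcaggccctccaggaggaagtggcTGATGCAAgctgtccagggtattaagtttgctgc
SLC38A1, chr12:46266487-46266546, minus strand: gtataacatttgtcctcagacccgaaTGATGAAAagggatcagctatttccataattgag
SLC1A3, chr5:36596342-36596401, plus strand: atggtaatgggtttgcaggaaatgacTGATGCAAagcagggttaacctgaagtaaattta
SLC3A2, chr11:62881719-62881748, plus strand: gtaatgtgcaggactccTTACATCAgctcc
SLC7A1, chr13:29595663-29595692, minus strand: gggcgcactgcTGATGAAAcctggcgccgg

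In SLC1A4 and SLC38A1 the motif began 7 and 4 bases before the start of 1 of their 2 annotated promoters. In SLC1A5 and SLC1A3 it began 97 and 220 bases before the start of 1 of their 3 annotated promoters. In SLC3A2 it lay 37 bases after the start of 1 of 3 annotated promoters, and in SLC7A1 it lay 7 bases after its only one. The log2 ratios of these 6 genes ran from -0.03 (SLC1A3) to 0.95 (SLC1A4) with a median of 0.28, and 5 were above 0. The 18 measured transporter genes whose promoters lacked these letters had a median of 0.01, with 9 above 0, and SLC7A5 at 0.66 was among them. The difference between these medians was not tested, and SLC1A4, SLC1A5 and SLC3A2, which prompted the search, are among the genes with the motif. The motif is a description of these windows and not evidence of a binding site.

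The SLC38 family takes up glutamine, alanine and other small neutral amino acids with sodium at the cell surface or moves them across organelle membranes. SLC38A1 (SNAT1), a surface glutamine carrier, read 3332.8 with FGF-AS siRNA and 2719.5 with negative control siRNA (log2 ratio 0.29), and 2265.6 with FGF-AS siRNA and 1806.8 with the control siRNA (0.33) on a second probe set. A further, dimmer one read 222 with FGF-AS siRNA and 252.1 with the control siRNA (-0.18). SLC38A2 (SNAT2), the carrier induced when cells lack amino acids, gave log2 ratios of -0.05, 0.16 and -0.17 on its 3 probe sets, all well within the SD, at signals between 4054.4 and 5524.7. The antisense gene SLC38A2-AS1 was under the minimum.

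The other measured members of the family read lower or level on their brightest probe sets. SLC38A7, a lysosomal glutamine exporter, read 330.7 with FGF-AS siRNA and 465.1 with negative control siRNA (-0.48, larger than the SD of 0.36), and 230.5 with FGF-AS siRNA and 297.8 with the control siRNA (-0.36) on a second probe set, while the other gave 0.06. SLC38A9, the lysosomal arginine sensor that signals to mTORC1, read 197.6 with FGF-AS siRNA and 234.9 with negative control siRNA (-0.24). SLC38A6 read 682.2 with FGF-AS siRNA and 690.7 with the control siRNA (-0.02), and SLC38A12 read 55.3 with FGF-AS siRNA and 69.7 with the control siRNA (-0.30). SLC38A10 was at -0.04 on its brightest probe set, with 300.8 with FGF-AS siRNA and 309.4 with the control siRNA, but its others ran from 0.50 (236.8 with FGF-AS siRNA and 166.2 with negative control siRNA) to -2.14 (12.3 with FGF-AS siRNA and 75.2 with the control siRNA). Of the 7 measured SLC38 genes, 6 were below 0, beside 51.8% of all measured genes, with a median of -0.05, and SLC38A1 was the exception. Under median centring SLC38A2, SLC38A6 and SLC38A10 turned positive, at 0.007, 0.038 and 0.016, and the last 2 also did so under quantile normalization and loess. SLC38A3, SLC38A4, SLC38A5 and SLC38A11 were not measured.

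In the proton-coupled SLC36 family, SLC36A1 (PAT1), a lysosomal and surface carrier of glycine, alanine and proline, read 133.8 with FGF-AS siRNA and 111.2 with negative control siRNA (0.25). SLC36A4 read 268.5 with FGF-AS siRNA and 315.6 with the control siRNA (-0.23), and its second probe set gave -0.14. In the facilitative SLC43 family, SLC43A1 (LAT3) was dim at 24.3 with FGF-AS siRNA and 36.9 with negative control siRNA (-0.50), and SLC43A2 (LAT4) read 67 with FGF-AS siRNA and 60.3 with the control siRNA (0.14). Each of these ratios was within the SD for its brightness. SLC43A3, a nucleobase carrier of the same family, was not measured.

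The SLC6 family moves its substrates with sodium and chloride, and many of its members recover transmitters in neurons. Only 6 of its 18 genes were measured. SLC6A6 (TAUT), the taurine carrier, read 1383.6 with FGF-AS siRNA and 1634.1 with negative control siRNA on its brightest probe set (228754_at), a log2 ratio of -0.24. The next probe sets were far lower, at 102.2 with FGF-AS siRNA and 369.3 with negative control siRNA (205920_at, -1.79) and at 53.9 with FGF-AS siRNA and 182.8 with the control siRNA (205921_s_at, -1.65). These probe sets were 3.47-fold and 3.15-fold lower, which is several times the SD of 0.36 for the first and over 2 times the 0.58 for the second. All 3 measured probe sets were lower, by unequal amounts. SLC6A8, the creatine carrier, was the steadiest, reading 1459.4 with FGF-AS siRNA and 1148.6 with negative control siRNA (0.34), and 0.38 and 0.41 on its other probe sets. Near-identical pseudogene copies of SLC6A8 exist, and a probe set that reports them together with SLC6A8 (215812_s_at) gave 0.49, so the signals of the gene and its copies cannot be told apart.

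SLC6A15, a carrier of branched-chain amino acids and proline known from brain, read 369.5 with FGF-AS siRNA and 323.5 with negative control siRNA (0.19), 156.9 with FGF-AS siRNA and 155.1 with the control siRNA (0.02), and 201.6 with FGF-AS siRNA and 96.6 with the control siRNA (206376_at, 1.02). All 3 were higher, by unequal amounts. The other measured genes were dim, in the range of the leukocyte markers. The dopamine carrier SLC6A3 read 45.5 with FGF-AS siRNA and 49.1 with the control siRNA (-0.10). The GABA carrier SLC6A13 read 31.1 with FGF-AS siRNA and 41.4 with the control siRNA (-0.35). SLC6A18 read 42.5 with FGF-AS siRNA and 40.7 with the control siRNA (0.05), and each of these ratios was within the SD for dim probe sets. The remaining 12 genes of the family, among them those of the noradrenaline (SLC6A2), serotonin (SLC6A4) and glycine (SLC6A5, SLC6A9) carriers, had mean signals from 3.2 to 22.9.

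Several transporter genes thus gave different answers on different probe sets. Of 135 transporter probe sets 58 were measured, and 14 genes had more than 1 measured. In 5 of these 14 genes all probe sets went one way: SLC1A4, SLC6A8 and SLC6A15 were higher, and SLC6A6 and SLC36A4 lower. That is 35.7% of the genes, beside 49.1% of 6155 genes over the whole array. The SD between probe sets of a gene was 0.68 for the transporters and 0.49 over all genes. Of the 58 probe sets, 2 were at least 2-fold higher with FGF-AS siRNA (1.94% of all single-symbol probe sets) and 5 at least 2-fold lower (5.33%), from the genes SLC6A6, SLC7A1, SLC7A8 and SLC38A10. Those of SLC7A1, SLC7A8 and SLC38A10 read 14.1, 5.9 and 12.3 with FGF-AS siRNA, so their sizes rest on signals under the minimum. At 1.5-fold the counts were 6 higher (7.53%) and 10 lower (15.1%).

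The low ratios came from the dimmer probe sets of a gene. Of the 29 that were not the brightest of their gene, 19 had a lower ratio than the brightest, which is 65.5% beside 59.4% over all genes. The median difference was -0.47 on the log2 scale for the transporters and -0.11 over all genes. The lower reading of dimmer probe sets was thus common to the whole array, and its part in the transporter ratios was not tested.

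**Figure D2:**
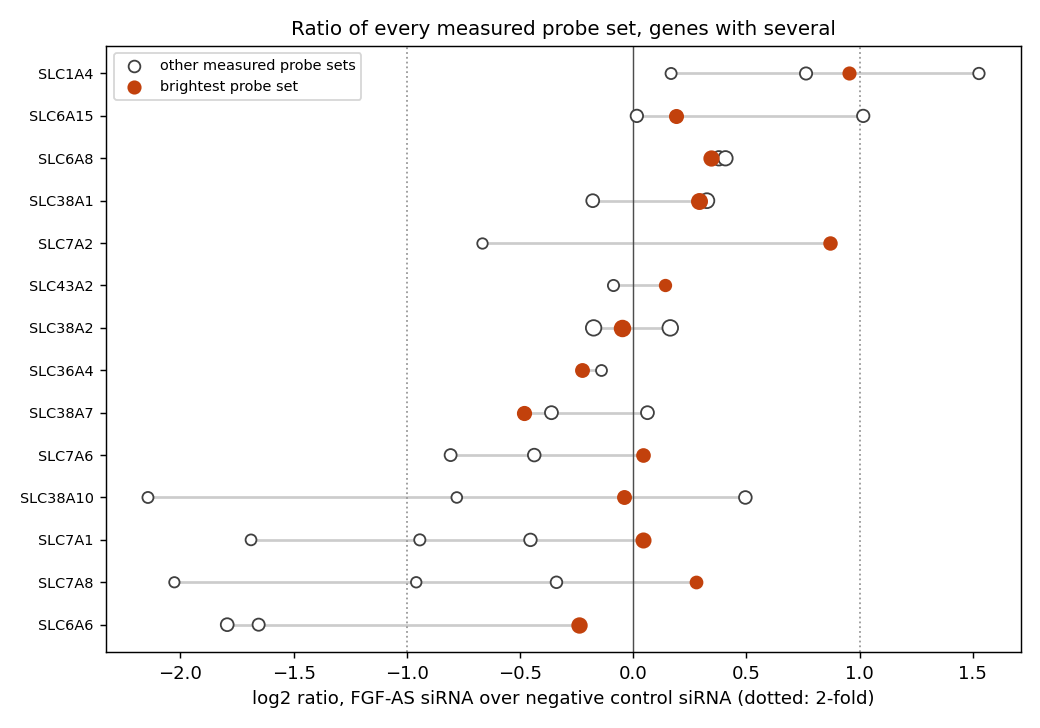
Log2 ratio of every measured probe set for the 14 transporter genes with more than 1, genes ordered by their mean, brightest probe set filled and the others open, with larger circles for brighter probe sets. SLC1A4 and SLC6A8 lie to the right of 0 on all probe sets, SLC6A6 to the left on all, and SLC7A8, SLC7A1 and SLC38A10 spread from above or near 0 to beyond 2-fold lower.

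**Figure D3:**
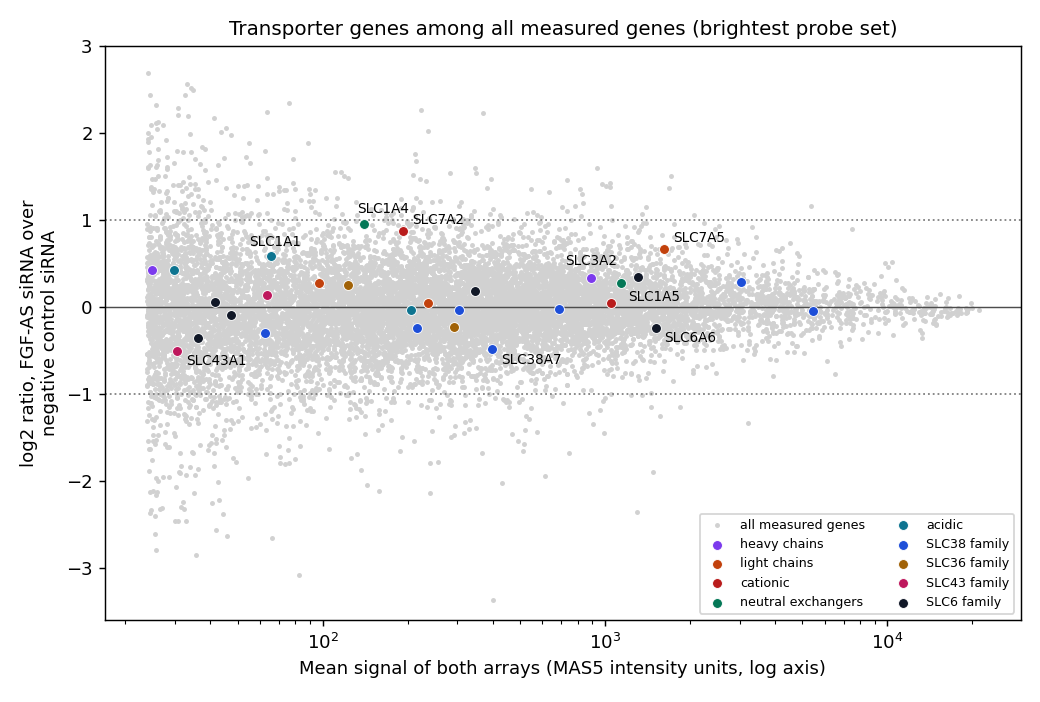
Log2 ratio against mean signal for the 29 measured transporter genes (coloured by role) and all 12352 measured genes (grey), brightest probe set, dotted lines at 2-fold. No transporter gene lies past a dotted line, and the highest are SLC1A4, SLC7A2 and SLC7A5.

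Genes of the surrounding amino acid pathways were taken from lists made by function, with earlier results of these data known. Over all measured genes 48.1% were above 0 and 51.8% below. Of 25 measured genes of the GCN2 and ATF4 response, 17 (68.0%) were above 0 on their brightest probe sets, with a median of 0.12. The dimmer measured probe sets of these higher genes went both ways. None of the 25 genes was 2-fold higher, and SESN2, a p53 and ATF4 target that senses leucine, was the single one past 2-fold lower. It read 247.7 with FGF-AS siRNA and 733.5 with negative control siRNA (-1.54), and its other probe set gave -0.79. A single gene of the list was at least 1.5-fold higher, CHAC1, an ATF4 target that degrades glutathione, which was named after its values were seen. It was dim and read 90.3 with FGF-AS siRNA and 45.2 with negative control siRNA (0.91).

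On brightest probe sets, 16 of 33 measured genes of amino acid sensing by mTORC1 were above 0 and 17 below (median -0.03). None was at least 1.5-fold higher, where 7.96% of all measured genes were. At least 1.5-fold lower were 3 (9.52% of all measured genes), SESN2, AKT1S1 (-0.83) and SESN1 (-0.66). SESN3 was at -0.44 on its brightest probe set, and its other measured probe sets ran from -1.53 to -3.24. The last of these read 7.9 with FGF-AS siRNA, under the minimum, and 126.2 with negative control siRNA. A second probe set of LAMTOR3 went the other way, at 0.67. The 18 aminoacyl-tRNA synthetase genes, which load amino acids onto tRNA, all lay within 1.5-fold on their brightest probe sets, with a median of -0.04. Over all measured genes 82.5% lay within 1.5-fold. TARS1 was furthest from 0 at 0.39 (3391.9 with FGF-AS siRNA and 2592.3 with negative control siRNA). Dimmer probe sets of EPRS1 (-1.59), VARS1 (-1.29) and LARS1 (-0.95) were lower by more, while a second probe set of WARS1 was higher (0.60). The 16 genes of glutamine and glutamate metabolism had a median of -0.03, and the proline breakdown enzyme ALDH4A1 was over 2-fold lower (57.5 with FGF-AS siRNA and 148.4 with negative control siRNA, -1.28, and -0.86 on its other probe set). Of 19 other amino acid and peptide transporters and partner proteins 13 (68.4%) were below 0, with a median of -0.09 and the dim vesicular glutamate carrier SLC17A7 furthest from 0 (-0.73, but 0.40 on its other probe set). Of 15 genes of branched-chain amino acid breakdown 11 (73.3%) were below 0, with a median of -0.12. BCKDHB, a subunit of the branched-chain keto acid dehydrogenase, was furthest at -0.95 (414.2 with FGF-AS siRNA and 808.2 with negative control siRNA) and -1.29 on its second probe set.

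**Figure D4:**
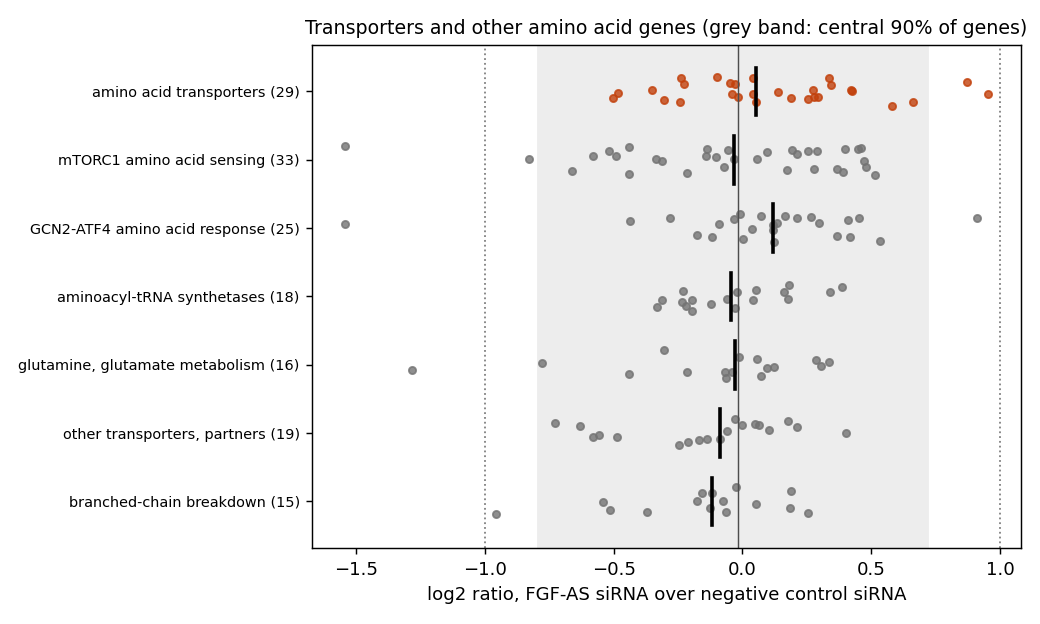
Log2 ratio of each measured gene (points) in the transporter set and 6 other lists of amino acid genes, with the list median as a black bar, the central 90% of all measured genes as a grey band and 2-fold dotted. The medians of all 7 lie between -0.12 and 0.12, and the transporter genes outside the band, SLC1A4 and SLC7A2, lie on its upper side.

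SLC38A1 and SLC38A2 were the only measured transporter genes that lie next to each other in the RefSeq annotation with no protein-coding gene between. Their log2 ratios were 0.29 and -0.05, of which the second was well within the SD, and both were above 0 under median centring (0.35 and 0.007). SLC43A1 and SLC43A3, with 1 protein-coding gene between, both read lower with FGF-AS siRNA (-0.50 and -0.83), but SLC43A3 was under the minimum.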

How the data were processed

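RNA of 1 FGF-AS siRNA and 1 negative control siRNA culture was measured on Affymetrix U133 Plus 2.0 arrays. The deposited intensities are probe set signals on a linear scale, made with GCOS and MAS5 per the submitters' processing notes. The scaling of the arrays against each other is stated in none of the sources used here, and detection calls were not used. The number of arrays limits the precision. Of 54613 probe sets outside 62 Affymetrix controls, 41091 had 1 gene symbol, 1801 several and 11721 none. RefSeq (GRCh38.p14) matched 41037 of the first kind by gene identifier, with no symbol changed. Ratios, the offset of 6.1, the minima of 23.9 and 145.2 and the probe set SD were computed with Python 3.11.15, numpy 2.4.6 and pandas 2.3.3, and tested on simulated data.

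Every measured member was named with its signals (SLC38A2 with their range), and for those past 1.5-fold all measured probe sets were given. In each list the genes past 2-fold or else the one furthest from 0 were named. CHAC1, AKT1S1, SESN1, SESN3, LAMTOR3, EPRS1, VARS1, LARS1 and WARS1 were added after their values were seen. Members and lists were chosen with earlier results of these data known. Alternatives were offsets of 1 and 24.4, median centring, quantile normalization, loess, other minima, the mean over probe sets, and no probe sets ending in _s_at or _x_at.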

Additional observations from a re-analysis of the deposited data

How the results depend on the processing

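SLC1A4, SLC7A5 and SLC3A2 stayed above 0 under all alternatives that measured them, with log2 ratios of 0.84 to 1.09, 0.65 to 0.72 and 0.33 to 0.39. All 3 have measured probe sets only of the kind ending in _s_at or _x_at, and SLC1A4 is also under the stricter minimum. The number of transporter genes at least 2-fold higher was 1 of 29 (SLC1A4) under median centring, quantile normalization and loess. Over all 12352 measured genes it was 303, 349 and 332 under these. Without a minimum 6 of 55 transporter genes were at least 2-fold higher, beside 1074 of all 19775 genes. The number at least 2-fold lower was 1 of 29 with the mean over probe sets (SLC6A6, -1.23), beside 344 of all 12352 measured genes. It was 1 of 22 (SLC7A8, -2.03) when probe sets with the endings _s_at and _x_at, which can report several transcripts, were dropped. Over all genes measured that way it was 316 of 9580. The median of the transporter genes was 0.21 under quantile normalization and 0.18 under loess, when that of all measured genes was 0.06 and 0.05, and it was -0.02 both with the mean over probe sets and with those probe sets dropped. The number measured was 55 without a minimum and 17 at the stricter one. With the mean over probe sets, SLC7A1 read -0.76, SLC38A10 -0.62, SLC7A6 -0.40, SLC7A8 -0.76 and SLC7A2 0.10. The mTORC1 list had a median of 0.071 under quantile normalization and 0.068 with those probe sets dropped, and the branched-chain list -0.27 with the mean over probe sets. The scaling also set the split of all measured genes past 2-fold, which was 253 higher and 336 lower and became 303 and 284 under median centring, 349 and 229 under quantile normalization, and 332 and 244 under loess. No paired analysis was possible because each group holds 1 array.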

Other observations

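Of the 26 transporter genes that were not measured, 5 read at or above 23.9 on 1 array. SLC38A5, a glutamine and histidine carrier, read 33.8 with FGF-AS siRNA and 5.5 with negative control siRNA, and SLC7A3, a cationic amino acid carrier, read 31 with FGF-AS siRNA and 4.1 with the control siRNA. SLC6A11, a GABA carrier, read 29.4 with FGF-AS siRNA and 16.4 with the control siRNA, and the noradrenaline carrier SLC6A2 read 26 with FGF-AS siRNA and 18.1 with the control siRNA. SLC6A19, a neutral amino acid carrier of gut and kidney, read 10.2 with FGF-AS siRNA and 26.3 with negative control siRNA. Each rests on a signal close to the minimum on 1 array, as did the leukocyte marker CD14 with 16.8 with FGF-AS siRNA and 38.3 with the control siRNA.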
